A study of Mus musculus with 3 samples.

Results

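The genes described here encode the co-receptors of Toll-like receptor 4 (Cd14 and Ly96), its adaptors (Tirap, Myd88, Ticam1 and Ticam2), the kinases of the IRAK family Irak2, Irak3 and Irak4, and the ubiquitin ligase Traf6. They were chosen by gene symbol, and all 10 were found among the 55536 annotated genes of the tables. Their levels were measured in 3 libraries of total RNA, depleted of ribosomal RNA, from the cytosol of macrophages grown from the bone marrow of C57BL/6J mice. Each culture had received 100 ng/ml of lipid A for 60 min, and each library was made from 1 µg of RNA with a size range of 250 to 400. The 3 libraries form 1 group, and their labels number them as replicates 1, 2 and 3. They are separate biosamples under a donor entry that names only the strain, so nothing says that they came from separate mice, and the spread between them may be technical. The age and sex of the mice were not recorded in the labels. Unstimulated cells and nuclear RNA were not analysed here, so levels in the stimulated cytosol are described and no induction was measured.

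Lipid A is the part of bacterial lipopolysaccharide that the receptor senses. CD14 captures it at the cell surface and passes it to MD-2, the product of Ly96, which sits on the outer part of Toll-like receptor 4 and holds the lipid. Inside the cell the receptor uses a pair of adaptor systems: TIRAP brings MyD88 to the plasma membrane, and TRAM (the product of Ticam2) brings TRIF (the product of Ticam1) to endosomes. MyD88 assembles with IRAK4 and then IRAK1 or IRAK2 into a complex called the Myddosome, which activates TRAF6 and leads to NF-kB and MAP kinases, whereas TRIF leads to IRF3 and type I interferon. IRAK-M, the product of Irak3, is a family member with little kinase activity and is known as a brake on the complex in macrophages.

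Annotated genes received 63944236 expected counts in replicate 1, 71989793 in replicate 2 and 69305836 in replicate 3. Levels are given in TPM, a share of all transcripts that is scaled by length. The 7SL RNA took 57.1, 69.6 and 62.2% of the TPM, and nuclear-encoded protein-coding genes took 32.7, 21.6 and 23.6%, so every TPM carries this difference between libraries. All 8 macrophage markers were above 1 TPM, from 21.7 TPM for Itgam to 5032 TPM for Lyz2. Of 32 markers of other lineages (lymphoid, dendritic, erythroid, stromal and neutrophil), 4 reached 1 TPM, all of them from neutrophils (S100a9, Csf3r, S100a8 and Ngp). The summed neutrophil markers lay between 38.4 and 50.6 TPM and the summed macrophage markers between 4403 and 8983 TPM. Single neutrophil markers ran from 0.0233 TPM for Ly6g to 15.9 TPM for S100a9. Malat1, a nuclear RNA, stood at 417, 122 and 323 TPM, lowest in replicate 2. In these bulk libraries fewer cells of a type and less RNA per cell cannot be told apart.

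A few exons separate transcript forms of these genes, and they are printed here because shares of forms are among the results. All coordinates are on GRCm38 (mm10) and all sequences were read 5′ to 3′ on the strand of the gene. Exon 2 of Myd88 (chr9:119338576-119338710, minus strand) has 135 bases and 45 codons and encodes the intermediate part between the death domain and the TIR domain. The known short form of MyD88, which does not recruit IRAK4, lacks this exon, and its share was not measured here.
Myd88 exon 2: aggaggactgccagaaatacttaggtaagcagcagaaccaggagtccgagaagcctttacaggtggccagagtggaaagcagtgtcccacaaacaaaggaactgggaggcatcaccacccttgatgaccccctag
Exon 3 of Irak2 (chr6:113665703-113665846, plus strand) has 144 bases, which is 48 codons, and the annotated form Irak2-202 lacks it.
Irak2 exon 3: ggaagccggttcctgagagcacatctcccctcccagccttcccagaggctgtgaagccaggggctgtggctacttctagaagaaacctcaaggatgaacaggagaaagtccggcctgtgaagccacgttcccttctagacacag
The joins that tell these forms apart are shown as 20 bases of exon 2 in lower case and 20 bases of the following exon in capitals. The first is present in 2 annotated transcripts and the second in 1, all of them from Irak2.
Irak2-201 exon 2 to 3: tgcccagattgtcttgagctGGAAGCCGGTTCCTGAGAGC
Irak2-202 exon 2 to its exon 3: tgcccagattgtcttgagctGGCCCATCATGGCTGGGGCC
Exon 3 of Ly96 (chr1:16700795-16700923, plus strand) has 129 bases, and the form Ly96-202 starts it 54 bases, or 18 codons, later, so the capitals are the part it lacks.
Ly96 exon 3: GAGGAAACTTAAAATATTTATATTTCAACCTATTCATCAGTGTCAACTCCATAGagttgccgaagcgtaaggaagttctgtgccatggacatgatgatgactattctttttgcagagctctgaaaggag
The 2 coding forms of Irak4 end on different last exons, whose coding parts lie at chr15:94567014-94567046 and chr15:94579888-94579902 (plus strand). Their last coding bases are given with the stop codon in capitals.
Irak4-201 coding end: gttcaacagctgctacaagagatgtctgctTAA
Irak4-202 coding end: gacctttcggttTAG

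The 10 genes covered a wide range of levels, with Cd14 at the top and Tirap at the bottom. Each library's median protein-coding gene, over genes whose mean reached 1 TPM (9.08, 5.76 and 6.86 TPM), served as the reference, and all 10 genes passed this minimum. Cd14, Myd88 and Irak2 were above the median gene by more than 2-fold (limma's treat test on log2(TPM + 0.1), Benjamini-Hochberg adjusted over 9123 genes). That is 3 of 10 genes, where 26.3% of all genes tested were called above. Tirap was the 1 gene called below, where 24.5% of all genes were. The other 6 (Ly96, Ticam1, Ticam2, Irak3, Irak4 and Traf6) were not called, which does not show that they equal the median gene. The median level of the 10 genes was 0.57 on the log2 scale, against -0.0050 for all genes tested. The reference depends on the filter. Without it 7 of the genes were above and 0 below, where 34.7% and 38.0% of all genes tested were. With a minimum of 5 TPM 1 was above and 2 were below, where 22.3% and 8.74% of all genes tested were. Tirap lay under that minimum and was not tested there.

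**Figure D1:**
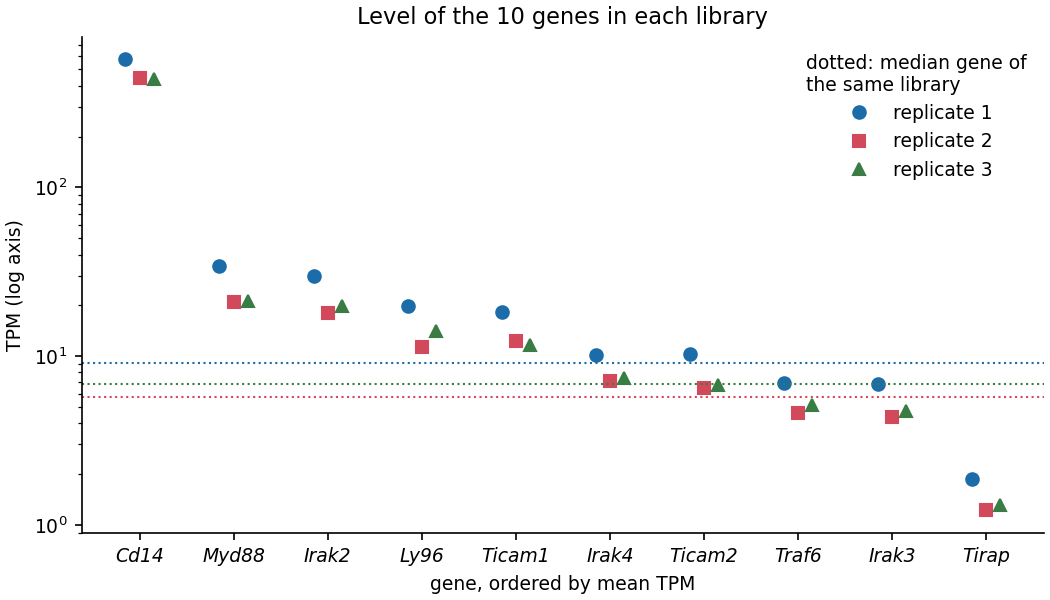
TPM of each gene in each library on a log axis, ordered by mean TPM, with dotted lines at the median protein-coding gene of the same library. Cd14 lies between 436 and 574 TPM and Tirap between 1.22 and 1.88 TPM, and replicate 1 (circles) has the highest TPM for each of the 10 genes. The second deposited quantification, not drawn, gave another order of libraries. There replicate 3 was highest for Cd14 (188, 214 and 217 TPM), Ly96, Tirap, Irak3, Irak4 and Traf6, and replicate 1 for Myd88, Ticam1, Ticam2 and Irak2.

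Among the co-receptors, Cd14 (ENSMUSG00000051439.7, chr18:36725067-36726798, minus strand) was one of the most abundant messages of the cells. Its TPM was 574, 445 and 436 in replicates 1, 2 and 3 (485 ± 77.3, mean ± SD, n = 3), from 70193, 89517 and 74486 counts. Against the median gene of each library this was 63.2, 77.2 and 63.5 times as much, highest in replicate 2. On the log2 scale Cd14 lay 6.06 ± 0.10 (SE) over the median gene (limma adjusted p = 2.1e-07), in 3 of 3 libraries, at a mean percentile of 99.4 among the genes tested. Ly96 (ENSMUSG00000025779.10, chr1:16688051-16709611, plus strand) stood far lower, at 19.8, 11.4 and 14.2 TPM (15.1 ± 4.30). It rested on 753, 712 and 742 counts and on a short transcript of 632 bases. At 2.18, 1.97 and 2.07 times the median gene its 3 libraries differed little, and it was not called (log2 level 1.04 ± 0.06, limma adjusted p = 0.47).

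Cd14 thus exceeded Ly96 by 29.0, 39.2 and 30.8 times in replicates 1, 2 and 3 (33.0 ± 5.45). The receptor gene itself, Tlr4, stood at 30.5, 14.8 and 22.5 TPM (22.6 ± 7.83) and was above the median gene by 1.59 ± 0.09 (limma adjusted p = 0.00063). Within each library Tlr4 was higher than Ly96, by 1.54, 1.31 and 1.59 times, and Cd14 was higher than Tlr4 by 18.8, 30.0 and 19.4 times. Replicate 2 had the highest ratio of Cd14 to each of the 2 partners and the lowest ratio of Tlr4 to Ly96. These ratios compare messages scaled by length and are not ratios of protein.

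Of the adaptors, Myd88 (ENSMUSG00000032508.8, chr9:119335934-119341411, minus strand) was the highest. It stood at 34.4, 21.1 and 21.3 TPM (25.6 ± 7.65), from 5449, 5472 and 4780 counts. This was 3.79, 3.65 and 3.10 times the median gene, lowest in replicate 3, and 1.79 ± 0.07 above it on the log2 scale (limma adjusted p = 6.2e-05). Its exons share 290 bases with those of Acaa1a on the opposite strand (13.4 TPM), and the sources used here do not say whether counting used strand. Acaa1a, Srpr, Gm39318, Tmbim4 and Twf1 are named only for such overlaps and were chosen after their values were seen.

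Tirap (ENSMUSG00000032041.15, chr9:35184551-35200291, minus strand), the bridge between the receptor and MyD88, was the lowest of the 10 genes. Its TPM was 1.88, 1.22 and 1.31 (1.47 ± 0.358), from 632, 683 and 634 counts. All 3 libraries lay far under the median gene, at 0.207, 0.212 and 0.191 times its level, and the log2 level was -2.22 ± 0.08 (limma adjusted p = 9.5e-06). Of its 4929 exon bases, 446 lie opposite the antisense gene Gm39318, which was at 0.00333 TPM, and 39 lie opposite exons of Srpr, which was at 19.1 TPM. Myd88 exceeded Tirap by 18.3, 17.3 and 16.3 times (17.3 ± 1.03), a ratio that varied little among the libraries. Tirap was not called below without the filter on low values (-0.86, limma adjusted p = 1), and in the second deposited quantification, with columns as kallisto writes them, it fell under the minimum of 1 TPM and was not tested.

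The adaptor pair of the interferon branch lay closer to the median gene. Ticam1 (ENSMUSG00000047123.8, chr17:56269319-56276786, minus strand), which encodes TRIF, stood at 18.3, 12.3 and 11.7 TPM (14.1 ± 3.64), from 4591, 5092 and 4165 counts. At 2.01, 2.14 and 1.70 times the median gene it was lowest in replicate 3 and was not called (0.95 ± 0.08, limma adjusted p = 1). Ticam2 (ENSMUSG00000056130.10, chr18:46557291-46574533, minus strand), which encodes TRAM, stood at 10.3, 6.47 and 6.78 TPM (7.83 ± 2.10), at 1.13, 1.12 and 0.988 times the median gene. Its log2 level of 0.11 ± 0.06 had no stable sign across settings, falling to -0.41 with the kallisto-style TPM and to -0.090 when centred on the mean gene. It shares 838 of its 5792 exon bases with Tmed7 on the same strand (25.7 TPM), so the split of reads between these genes is uncertain.

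Ticam1 exceeded its partner Ticam2 by 1.78, 1.91 and 1.72 times, and Myd88 exceeded Ticam1 by 1.81 ± 0.0908 times. The adaptors were thus ordered Myd88, Ticam1, Ticam2 and Tirap in each of the 3 libraries.

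Among the kinases, Irak2 (ENSMUSG00000060477.14, chr6:113638467-113695026, plus strand) was the highest. Its TPM was 29.7, 17.9 and 19.8 (22.5 ± 6.32), from 7523, 7245 and 6261 counts. This was 3.27, 3.11 and 2.88 times the median gene, lowest in replicate 3, with a log2 level of 1.61 ± 0.06 (limma adjusted p = 9.1e-05). Irak4 (ENSMUSG00000059883.16, chr15:94543643-94581815, plus strand), the kinase that joins MyD88 first, stood at 10.2, 7.11 and 7.42 TPM (8.24 ± 1.70). It was 1.12, 1.23 and 1.08 times the median gene and was not called (0.19 ± 0.06, limma adjusted p = 1), with the sign turning at -0.027 with the kallisto-style TPM and at -0.0049 when centred on the mean gene. Its last exon in Irak4-202 lies over 395 exon bases of Twf1 on the opposite strand (26.5 TPM).

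Irak3 (ENSMUSG00000020227.10, chr10:120141648-120202130, minus strand), the inhibitory member, was the lowest kinase gene at 6.82, 4.37 and 4.76 TPM (5.32 ± 1.32). It lay at 0.751, 0.759 and 0.694 times the median gene, below it in 3 of 3 libraries, but was not called (-0.44 ± 0.06, limma adjusted p = 1). It shares 192 exon bases with Tmbim4 on the opposite strand (29.0 TPM). Irak2 exceeded Irak3 by 4.35, 4.10 and 4.16 times (4.20 ± 0.131) and Irak4 by 2.70 ± 0.196 times. Irak4 exceeded Irak3 by 1.56 ± 0.0657 times, so the order of these 3 genes was the same in every library. Irak1, the family member outside the 10 genes, stood at 17.7, 13.0 and 13.6 TPM (14.8 ± 2.57) and was not called (1.03, limma adjusted p = 0.56). Irak2 was higher than Irak1 by 1.50 ± 0.154 times, in 3 of 3 libraries.

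Traf6 (ENSMUSG00000027164.8, chr2:101678429-101701669, plus strand), the ligase that receives the signal from the IRAK complex, stood at 6.91, 4.61 and 5.10 TPM (5.54 ± 1.21). Its counts were 3487, 3935 and 3703, more than those of Irak4 (2434, 2756 and 2508) although its TPM was lower, since its main transcript has 6169 bases against 2831. At 0.761, 0.800 and 0.743 times the median gene it was not called (-0.37 ± 0.06, limma adjusted p = 1), and Irak4 exceeded it by 1.49 ± 0.0456 times. Irak3 and Traf6 were both called below with a minimum of 5 TPM (-1.36 and -1.30, limma adjusted p = 0.0025 and 0.0052), which raises the reference gene.

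By mean TPM the order was Cd14, Myd88, Irak2, Ly96, Ticam1, Irak4, Ticam2, Traf6, Irak3 and Tirap. A pair was taken to differ beyond its spread where the log2 difference had 1 sign in all 3 libraries and a mean of at least 1 SD. The order was taken from these same libraries, so the direction of each difference was largely set in advance and the rule is descriptive. By this rule 7 of the 9 neighbouring pairs differed. Ly96 and Ticam1 did not, at 0.09 ± 0.20 (SD) on the log2 scale, with Ticam1 higher in replicate 2. Irak4 and Ticam2 did not either, at 0.09 ± 0.08, with Ticam2 higher by 0.01 in replicate 1. In the kallisto-style TPM both of these pairs did differ by the rule. Ly96 was over Ticam1 by 0.22 and Irak4 over Ticam2 by 0.38 there, each with 1 sign in 3 of 3 libraries. The steps from Myd88 to Irak2 (0.18 ± 0.07) and from Traf6 to Irak3 (0.06 ± 0.04) were small, and neither held in the kallisto-style TPM (0.01 and 0.01, each with 1 sign in 2 of 3 libraries). That TPM thus also gave 7 differing pairs, but not the same 7. The widest gaps were at the ends, where Cd14 exceeded Myd88 by 19.4 ± 2.40 times and Irak3 exceeded Tirap by 3.61 ± 0.0282 times. Over these pairs and the role pairs above, 20 differences were computed, and with 3 libraries the exact 2-sided sign-flip permutation test cannot give less than p = 0.25 (0.278 after adjustment), so no pair passes a threshold of 0.05.

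A further 32 genes of the pathway, from a list chosen with earlier results of these data known, show where the 10 genes stand. Of the 27 that reached 1 TPM, limma called 16 above the median gene and 3 below and left 8 uncalled, with a median log2 level of 1.57. Over all genes tested the shares were 26.3% above and 24.5% below. The group of the receptor and accessory proteins, which also holds genes that serve related receptors, stood highest. Of its 8 genes 7 were tested and all 7 were above. They were led by Unc93b1, which escorts endosomal Toll-like receptors (146 ± 42.9 TPM), the chaperone gene Hsp90b1 (117 ± 34.6 TPM) and Cd180, a receptor relative of Tlr4 (107 ± 28.1 TPM). Ly86, the MD-1 partner of Cd180, followed at 41.6 ± 16.7 TPM, then Tmed7 at 25.7 ± 10.5, Tlr4, and the folding factor gene Cnpy3 at 21.2 ± 6.37 TPM. Lbp, whose secreted product carries lipopolysaccharide to CD14, was at 0.270 TPM and not tested. Cnpy3 was not called with the kallisto-style TPM (1.08, limma adjusted p = 0.23).

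**Figure D2:**
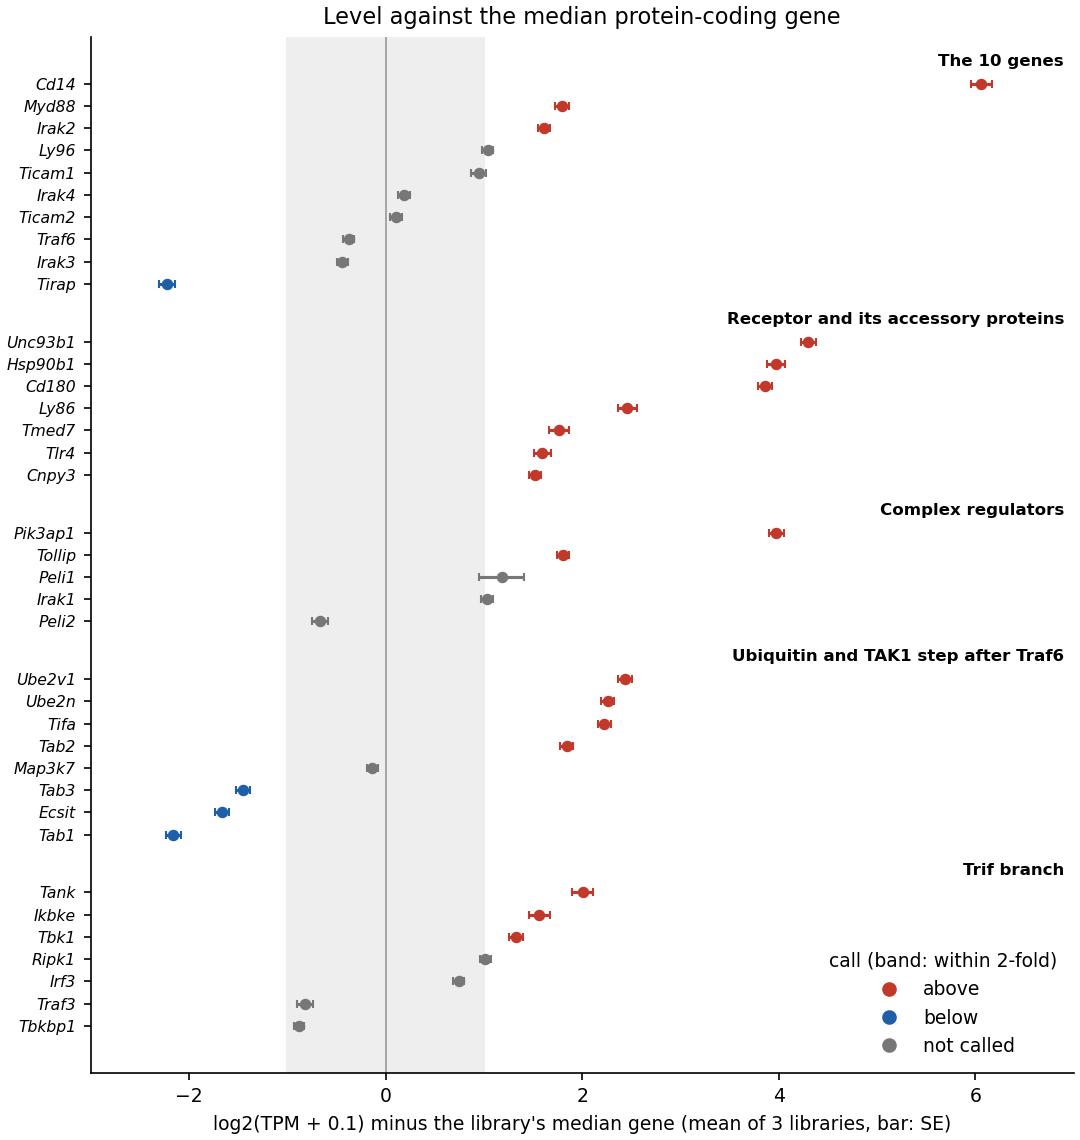
Level of the 10 genes and of the other pathway genes tested, as log2(TPM + 0.1) minus the library's median protein-coding gene, with the mean of 3 libraries as a point and its SE as a bar. The grey band spans 2-fold either way, and red and blue points were called above or below it. Cd14 lies at 6.06, beyond each of the other genes drawn, and Tirap lies lowest at -2.22, next to Tab1.

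Among the regulators of the receptor complex, Pik3ap1, which encodes the adaptor BCAP (115 ± 20.8 TPM), and Tollip (25.5 ± 5.92 TPM) were above the median gene. Irak1, Peli1 and Peli2 were not called, and Irak1bp1, Peli3, Sigirr and Sarm1 lay under 1 TPM, with Sarm1 lowest at 0.0400 TPM. Peli1, which encodes the ligase Pellino 1, was at 24.6, 19.0 and 9.20 TPM, lowest in replicate 3. With all 3 libraries Peli1 was uncalled (1.18 ± 0.23, limma adjusted p = 0.41), but leaving out replicate 3 put it above the median gene (1.57, limma adjusted p = 0.00099). The values of Peli1, Peli2, Peli3, Irak1bp1 and Sigirr were known when these genes were picked for naming.

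In the ubiquitin and TAK1 step that follows Traf6, 4 genes were above the reference, 3 were below it and 1 was uncalled. The ubiquitin-conjugating pair Ube2v1 and Ube2n, with which TRAF6 builds its chains, stood at 39.5 and 35.3 TPM, the TRAF6-binding Tifa at 34.4 and Tab2 at 26.3 TPM. The 3 genes below were Tab1 (1.55 TPM), Ecsit (2.20 TPM) and Tab3 (2.59 TPM). Tab1 and Tirap were thus at a similar low level, while Tab2, the other ubiquitin-binding TAB besides Tab3, was above. Without the filter on low values Tab1, Ecsit and Tab3 were not called below (-0.80, -0.30 and -0.091). With the kallisto-style TPM Tab1 and Ecsit fell under 1 TPM and were not tested. In the branch after TRIF, Tank (30.0 TPM), Ikbke (22.5 TPM) and Tbk1 (18.5 TPM) were above and 4 genes, with Tbkbp1 lowest at 3.88 TPM, were not called. Tbk1 was not called with the kallisto-style TPM (1.07, limma adjusted p = 0.42) or when centred on the mean gene (1.13, limma adjusted p = 0.11). Tbkbp1 was called below with the kallisto-style TPM (-1.18, limma adjusted p = 0.022).

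The tables held 38 transcripts of the 10 genes, and 15 of them made up at least 5% of their gene's TPM on average. In 7 of the 10 genes, among them Ticam1 with its 1 annotated transcript, a single transcript held over 90% of the TPM. Over the 8469 genes tested that have more than 1 transcript, 37.3% had such a transcript, and the median share of the main transcript was 80.5%. The main shares were 97.5 ± 1.20% for Ly96-201, 98.3 ± 1.55% for Ticam2-201, 97.2 ± 0.866% for Irak3-201, 97.0 ± 0.696% for Irak4-201 and 93.4 ± 1.83% for Traf6-201. A second form of Traf6, the noncoding Traf6-202, was at 5.24, 3.44 and 6.76%. These shares are estimates of the quantifier from reads that many forms have in common.

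Myd88 was read almost wholly as 1 form. Myd88-201, which holds the exon 2 printed above, had 99.7, 99.7 and 99.6% of the gene's TPM in replicates 1, 2 and 3, and 99.6% on average in the kallisto-style table. The retained-intron form Myd88-203 had 0.290, 0.330 and 0.410%. Myd88-202, a form of 379 bases with another first exon, was at 0 counts in all 3 libraries of both quantifications, where a count of 0 allows up to 3 counts in each library. Of the annotated transcripts 0 join exon 1 to exon 3, so the short form without exon 2 has no row of its own and its share was not measured.

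In the RSEM-style columns Irak2 was the gene whose main share varied most between the libraries, while in the kallisto-style table the SD was larger for Irak4-201 (6.66%) and Tirap-201 (4.44%) than for Irak2-201 (4.30%). Irak2-201 held 85.7, 80.9 and 70.5% of its TPM in replicates 1, 2 and 3 (79.0 ± 7.79%), lowest in replicate 3. Irak2-202, without the 48 codons of exon 3, held 7.01, 9.69 and 10.2% (8.97 ± 1.72%), from 519, 712 and 717 counts. This form was detected in every library, at 4.41, 5.64 and 6.35% in the kallisto-style table. Irak2-203, named here after seeing its values, lacks exon 2 and was at 0, 0 and 0.190%.

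The spread of Irak2 came with a short form from the 3′ part of the gene. Irak2-207, annotated as a retained intron of 573 bases that runs 38 bases into the intron next to exon 12, had 0, 64.7 and 150 counts, or 0, 6.66 and 16.6% of the TPM. The deposited interval, whose level the files do not state, reached 1.34 TPM in replicate 1 and ran from 2.10 to 4.51 TPM in replicate 3, so these intervals did not overlap. In the kallisto-style table the same form was at 9.70, 8.43 and 12.4%, with 120, 94.1 and 128 counts, so the absence in replicate 1 was not seen there. In that table Irak2-201 held 66.4, 75.0 and 70.2%, and replicate 3 was not the lowest.

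**Figure D3:**
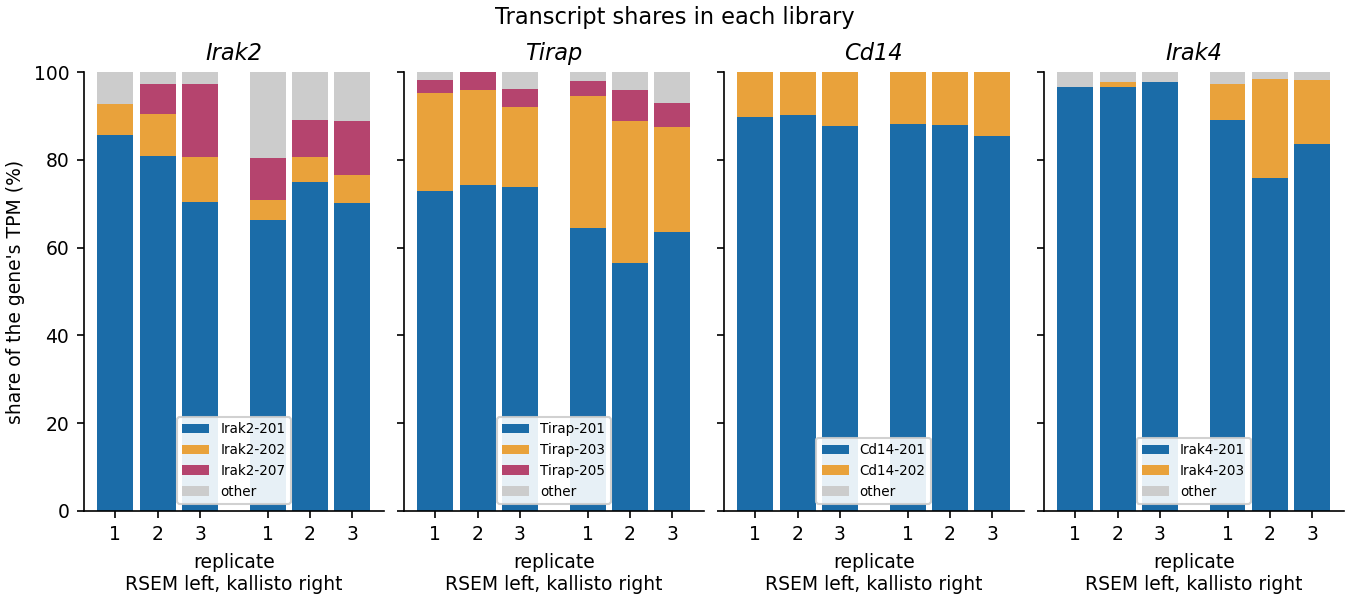
Share of each gene's TPM by transcript in replicates 1, 2 and 3, for the RSEM-style columns (left bars) and the kallisto-style columns (right bars), with remaining transcripts in grey. Irak2-207 is absent in replicate 1 and at 16.6% in replicate 3 on the left but between 8.43 and 12.4% on the right, and Irak4-203 is nearly absent on the left but at 8.08 to 22.5% on the right.

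Cd14 and Tirap also had a second form in each library. Cd14-202, a single exon of 868 bases annotated as retaining the gene's 91-base intron, held 10.2, 9.75 and 12.3% of the TPM (10.8 ± 1.37%), from 3489, 4244 and 4488 counts, and 11.9, 12.0 and 14.5% in the kallisto-style table. Retained-intron forms together held 3.34, 2.65 and 2.89% of the TPM of all genes tested in replicates 1, 2 and 3. Replicate 3 had the highest share of Cd14-202, while Malat1 and the pooled retained-intron share were highest in replicate 1, and their part in this share was not tested. Tirap-201 held 72.9, 74.4 and 73.9% of the Tirap TPM, and Tirap-203, whose last exon has 1146 bases where that of Tirap-201 has 3380, held 22.3, 21.5 and 18.1% (20.6 ± 2.18%). The kallisto-style table gave 61.5% and 28.8% for these forms on average, and at 64.1 to 81.7 counts per library for Tirap-203 the split is imprecise.

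Minor forms of Ly96 and Irak4 were low and were named after their values were seen. Ly96-202, which starts exon 3 after the capitals in the sequence above, held 1.81, 0.580 and 3.41% of the Ly96 TPM, from 7.21, 2.16 and 13.2 counts. A mouse form of MD-2 shortened in exon 3 is known as MD-2B, and in replicate 2 Ly96-202 had fewer than the 3 counts that a count of 0 allows. Irak4-202, with the shorter coding end, held 3.38, 2.21 and 2.16%, highest in replicate 1. Irak4-203, a retained-intron form of 1159 bases, was at 0, 1.14 and 0% in the RSEM-style columns but at 8.08, 22.5 and 14.6% in the kallisto-style table, where Irak4-201 accordingly fell to 89.2, 75.9 and 83.7%. The 2 quantifications thus gave different values for this form in each of the libraries.

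The spread between libraries was described gene by gene. After TMM scaling of the counts in edgeR, the highest library exceeded the lowest by 1.09 times for Traf6 and by 1.29 times for Irak2, with a median of 1.13 against 1.19 for 13026 genes. Cd14, Myd88, Ticam1 and Irak2 exceeded that 1.19, at 1.24, 1.22, 1.26 and 1.29 times, and the other 6 genes lay under it. The biological coefficient of variation (BCV), edgeR's estimate of variation beyond counting noise, ran from 0.0860 for Traf6 to 0.128 for Cd14. Its median was 0.105 for the 10 genes and 0.122 for all genes, a difference that was not tested. Counts still differed between libraries beyond counting noise for 8 of the 10 genes (chi-square of rounded counts, Benjamini-Hochberg adjusted), where 62.5% of all genes did, and Ly96 and Tirap, the genes with the fewest counts, were the exceptions. Without replicate 2 this held for 4 of the 10 genes and 45.5% of all genes, and without replicate 3 for 5 of the 10 and 43.5% of all genes.

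Replicate 3 was the lowest library for 9 of the 10 genes after TMM scaling, all but Ly96, and it was the lowest for 33.9% of all genes. Irak2 was at 114, 106 and 88.7 CPM (counts scaled to a common library size) in replicates 1, 2 and 3, Ticam1 at 69.8, 74.2 and 59.0, and Myd88 at 82.9, 79.7 and 67.7, each lowest in replicate 3. Cd14 was at 1068, 1304 and 1055 CPM, with replicates 1 and 3 close together and replicate 2 above both. Replicate 2 was the highest library for 7 of the 10 genes (34.2% of all genes) and replicate 1 for the other 3, Ly96, Myd88 and Irak2 (31.9% of all genes).

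**Figure D4:**
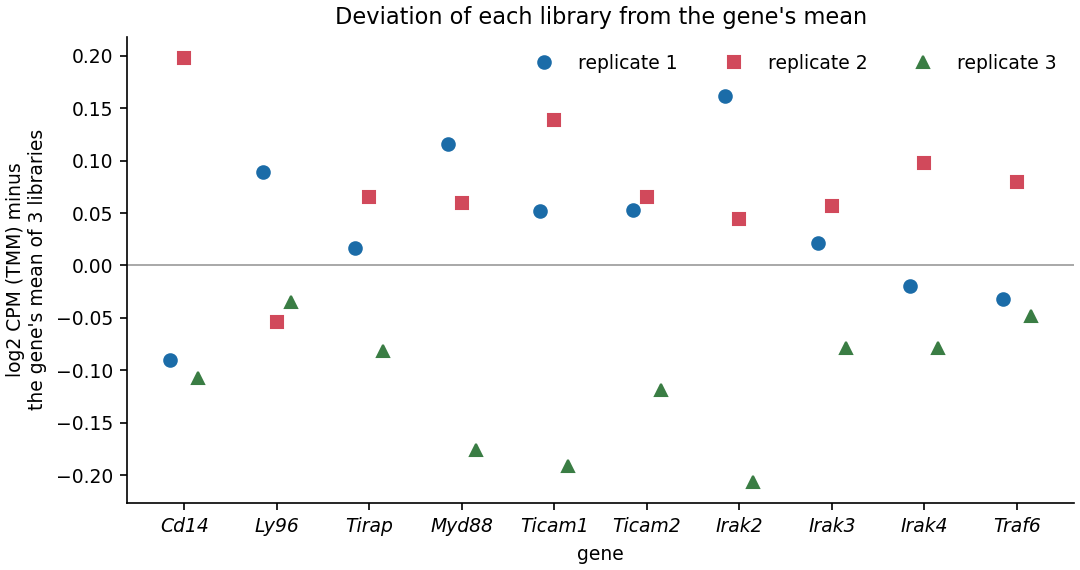
Deviation of each library from the gene's mean over 3 libraries, in log2 CPM after TMM scaling. Replicate 3 (triangles) lies lowest for each gene but Ly96, by up to 0.21 for Irak2, and Cd14 in replicate 2 lies 0.20 above its mean.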

How the data were processed

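RNA-seq tables of 3 libraries were used. Per the file headers, the authors deposited expected counts, TPM and, as a percent, each transcript's share of its gene's TPM, in columns named as RSEM writes them, and a second transcript table with estimated counts and TPM named as kallisto writes them. The deposited description files name mm10 and GENCODE M21. For quantifier versions and strand, nothing is given in the sources used here. Rows that are no annotated gene held 0.260, 0.0933 and 0.0577% of the counts and were left out.

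The 10 genes and the lists were chosen with earlier results of these data known. All 10 are named, as are pathway genes called above or below, Tlr4, Irak1, the highest and lowest gene of each role, transcripts of at least 5% and every Myd88 transcript; other names are marked. No comparison between conditions was possible with 1 group.

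To test levels, log2(TPM + 0.1) was centred on each library's median and fitted with an intercept alone in limma 3.58.1 (R 4.3.3), using treat with a band of 1, a trended prior and a Benjamini-Hochberg threshold of 0.05, over protein-coding genes with a mean of at least 1 TPM. The log2 scale with a pseudocount understates differences of low genes. Expected counts were rounded, filtered with filterByExpr and scaled by TMM in edgeR 4.0.16 for BCV and chi-square tests, with DESeq2 1.42.0 as an alternative. Both tests were also run on simulated data. There, levels meant to be uncalled lay inside the band and counts held counting noise only. Levels at the edge of the band and a wider spread of counts were not covered. Other steps used Python 3.11.15 with pandas 2.3.3 and numpy 2.4.6. Sequences were cut from the GENCODE M21 transcript sequences by the lengths of their exons. Proteins were not used here. Alternatives were the kallisto-style values, another pseudocount, filter, centre and count scaling, and leaving out each library. Counting limits cover counting error only.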

Additional observations from a re-analysis of the deposited data

How the results depend on the processing

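Calls against the median gene moved with the choice of reference more than with the libraries. Against the values given above, log2 levels shifted by 1.36 without a filter on low values and by -0.93 with a minimum of 5 TPM. Centred on the mean gene they shifted by -0.20. In each of these settings only the reference changed, and all genes moved by the same amount. The kallisto-style TPM also replaced each gene's own value, so shifts differed between genes, with a median of -0.43 over 9 genes. Irak4 went from 0.19 to -0.027 there, and Ticam2 from 0.11 to -0.41. The TPM values themselves were lower in that table for each of the 10 genes. Cd14 averaged 206 TPM against 485, Myd88 10.7 against 25.6 and Tirap 0.70 against 1.47. Without the filter 7 of the 10 genes were above and 0 below, and 5 pathway genes were below. Tab1, Ecsit and Tab3, the 3 called below with the filter, were not among those 5 and were uncalled (-0.80, -0.30 and -0.091). With a minimum of 5 TPM 9 of the 10 genes were tested, of which 1 was above and 2 were below. Of 21 pathway genes tested at this minimum 8 were above and 0 below. Tirap, Tab1, Ecsit and Tab3 lay under that minimum and were not tested, so they could not be called below. With the kallisto-style TPM 0 of the 10 were below, since Tirap was not tested. Levels that changed sign were mostly near the reference. Without the filter Irak3 was at 0.92, Traf6 at 0.99, Peli2 at 0.70, Traf3 at 0.54, Tbkbp1 at 0.48 and Map3k7 at 1.22 (the last called above, limma adjusted p = 0.0054). With a minimum of 5 TPM Ticam2 was at -0.82, Irak4 at -0.73 and Irf3 at -0.18, and Myd88 and Irak2 were no longer called (0.87 and 0.69). With the kallisto-style TPM Ticam2 was at -0.41 and Irak4 at -0.027, and centred on the mean gene they were at -0.090 and -0.0049. Peli2, Traf3, Map3k7 and Irf3 were named after their values were seen. Leaving out each library in turn, or a pseudocount of 1, changed no call of the 10 genes. The genes whose counts differed beyond counting noise numbered 4 to 8 of the 10 when 1 library was left out, and 43.5 to 46.8% of all genes did so. The main counts not named here stayed within 1.5 times under each alternative run. Without the filter 4986 of 14388 genes were above and 5463 below, and with a minimum of 5 TPM 1254 and 491 of 5620. No paired analysis was possible because the libraries form 1 group. Ly96 and Tirap rest on the fewest counts, which limits their precision.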
